A study of Mus musculus with 16 samples.

Results

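The chromatin of 10 early response genes was examined: the AP-1 subunit genes Fos, Fosb, Fosl2, Jun, Junb and Jund, the transcription factor genes Egr1 and Atf3, and the immediate early genes Ier2 and Dusp1. They are 10 of the 17885 genes to which the deposited tables assign at least 1 region of any histone mark. Their regions were taken as those whose deposited annotation names the gene with a distance from its start, which gave 270 of 114597 regions of H3K27ac, 203 of 60720 of H3K9ac, 133 of 43128 of H3K4me3, 270 of 114913 of H3K4me1 and 26 of 14721 of H3K27me3. The annotation gives nearly all regions to 1 or 2 neighbouring genes, so a gene's regions are those assigned to it by distance, not regions shown to act on it.

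The cells were ER-Hoxb8 myeloid progenitors of C57BL/6 mice, which are held at a progenitor stage by an estrogen-dependent form of Hoxb8. All 3 lines carried that construct, and each stably carried 1 further vector: an empty vector, wild-type ERG (WT-ERG) or ERG with the proline-to-leucine change P199L (P199L-ERG). ERG is an ETS transcription factor of blood stem cells whose overexpression is linked to leukaemia, and the comparison asks how each form changes histone marks. Each line gave 1 chromatin immunoprecipitation library per mark and the labels name no stimulus. There was therefore no replicate and no test, and line, culture and library cannot be told apart.

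AP-1 is a dimer of a Fos and a Jun family protein, or of a Jun protein with an ATF family partner, and binds short palindromic sites in promoters and enhancers. Its subunit genes are themselves immediate early genes: growth factors, cytokines and stress switch them on within minutes through MAP kinases, using serum response factor and CREB bound in advance near their starts. In myeloid cells these genes respond to cytokines and microbial products, and Dusp1, a phosphatase that turns MAP kinases off, acts as a brake on the same signal.

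The letters behind these loci are shown first, because the results below turn on the position and base composition of the regions. RefSeq promoter windows of GRCm38.p6, which run from 250 bases before to 50 after the start, matched 8 of the 10 genes. The bases before the start are given for Fos and Dusp1, with the core of the cAMP response element, TGACG (either strand), in capitals, and for Fosl2, with the ETS core GGAA or its complement TTCC in capitals. The stretches lie at chr12:85473640-85473889 (+), chr17:26508473-26508722 (-) and chr5:32136222-32136471 (+).
Fos promoter: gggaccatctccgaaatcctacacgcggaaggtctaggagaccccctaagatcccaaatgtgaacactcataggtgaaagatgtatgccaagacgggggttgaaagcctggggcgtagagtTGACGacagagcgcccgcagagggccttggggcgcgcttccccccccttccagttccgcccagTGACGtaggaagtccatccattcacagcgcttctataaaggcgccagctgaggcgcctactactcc
Dusp1 promoter: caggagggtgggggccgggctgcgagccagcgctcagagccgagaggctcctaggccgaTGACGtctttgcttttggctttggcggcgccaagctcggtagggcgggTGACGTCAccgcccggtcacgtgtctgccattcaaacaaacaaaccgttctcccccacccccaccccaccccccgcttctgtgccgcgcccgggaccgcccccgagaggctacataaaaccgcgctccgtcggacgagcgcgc
Fosl2 promoter: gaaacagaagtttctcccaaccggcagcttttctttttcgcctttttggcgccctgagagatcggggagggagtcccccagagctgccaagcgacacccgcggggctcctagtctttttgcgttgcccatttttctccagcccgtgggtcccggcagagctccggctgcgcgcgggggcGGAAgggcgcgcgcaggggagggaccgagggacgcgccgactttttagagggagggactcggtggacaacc
The Dusp1 stretch holds the full element TGACGTCA, which is its own reverse complement and therefore counts as 2 of its 3 cores. The Fos core closer to the start covers bases -66 to -62.

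In the windows of all 32841 promoters the full element was found in 1.79%, its core in 20.8%, the AP-1 site (TGACTCA or TGAGTCA) in 5.20%, the CArG box bound by serum response factor in 1.63% and GGAA in 96.0%. Of the 8 member windows, 1 held the full element (Dusp1), 5 the core (Fos, Fosb, Junb, Atf3 and Dusp1) and 8 GGAA. An AP-1 site or a CArG box was found in 0 of them, which holds for the bases inside these windows only. The CArG box in the Fosb stretch printed below lies upstream of the Fosb window, which ends at chr7:19310295. Egr1 and Ier2 had no window, so their promoters were not searched. The member windows were 46.7% to 68.3% GC with a median of 64.7%, against 52.7% for all promoters. Jund had the lowest value. Its deposited distances are counted from a start 1210 bases downstream of the RefSeq one, so its window lies outside the promoter that the files use, and those of Fosl2 from a start at -672 bases from it. For Egr1 the difference was -1384 bases.

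The central 200 bases of 3 regions are shown for their contrast in base composition and response: the Fosb promoter region of H3K27ac at chr7:19310239-19310438, a region assigned to Jun 218 kb upstream of it at chr4:95270515-95270714, and an H3K4me1 region 27.5 kb downstream of the Dusp1 start at chr17:26480959-26481158. Capitals mark GGAA or TTCC and, in the Fosb stretch, 1 CArG box (CCATATAAGG). All are printed on the + strand.
Fosb H3K27ac region: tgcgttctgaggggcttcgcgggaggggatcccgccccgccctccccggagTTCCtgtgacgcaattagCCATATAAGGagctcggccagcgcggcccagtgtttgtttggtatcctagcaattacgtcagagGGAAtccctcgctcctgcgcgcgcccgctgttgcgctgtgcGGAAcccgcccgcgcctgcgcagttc
Jun distal H3K27ac region: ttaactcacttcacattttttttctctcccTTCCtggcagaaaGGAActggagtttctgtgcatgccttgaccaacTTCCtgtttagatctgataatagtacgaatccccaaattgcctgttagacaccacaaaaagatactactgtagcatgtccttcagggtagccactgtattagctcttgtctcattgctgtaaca
Dusp1 H3K4me1 region: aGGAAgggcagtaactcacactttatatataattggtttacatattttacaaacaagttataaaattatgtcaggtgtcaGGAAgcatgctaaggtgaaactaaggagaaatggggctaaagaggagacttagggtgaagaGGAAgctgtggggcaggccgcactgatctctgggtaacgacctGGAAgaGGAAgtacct
Their GC content was 65.5%, 41.5% and 43.0%, and they held 3, 3 and 5 ETS cores. Centres of the same length held at least 1 core in 88.8% of all H3K27ac regions and 89.7% of all H3K4me1 regions, and a CArG box in 0.752% of the former.

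The libraries held 10268618 to 22278560 reads inside the regions of the 4 active marks and 768125 to 980145 for H3K27me3, so H3K27me3 values are less precise. All 8 myeloid progenitor genes checked (among them Mpo, Elane, Kit and Spi1) had H3K27ac regions, at 112 to 710 normalized reads per kb in the empty vector. Of 10 genes of other cell types, 8 also had regions, at 13.8 to 689 per kb (median 74.6), while Cd3g of T cells and Alb of hepatocytes had none.

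In the empty vector line all 10 genes were marked by H3K27ac, H3K9ac, H3K4me3 and H3K4me1. H3K27ac per kb of region, in normalized reads, was highest at Junb (755), Jund (539) and Ier2 (506), intermediate at Dusp1 (341), Fosl2 (291) and Egr1 (260), and lowest at Jun (196), Atf3 (194), Fosb (182) and Fos (162). The genes also differed in how their regions lie: Junb had 2 long regions and Jund 6, whereas Fos had 67 and Jun 58, mostly short and distant. All 270 regions overlapped H3K4me1, as did 93.4% of all H3K27ac regions. Of them 116 were promoter-like, overlapping both H3K4me3 and H3K9ac (43.0%, against 33.1% of all H3K27ac regions), and 148 were enhancer-like, overlapping H3K4me1 but not H3K4me3 (54.8%, against 60.2%). MACS2 peaks were called in all 3 lines at 133 of the 270 (49.3%, against 39.4%). Many were shared with a neighbour in the annotation: 55 of the 58 of Jun with Fggy, 41 of the 67 of Fos with Tmed10, 23 of the 37 of Fosl2 with Babam2 and 20 of the 24 of Atf3 with Nenf.

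H3K27ac, a mark of active promoters and enhancers, is given first, as normalized reads summed over each gene's regions. A log2 ratio is that of 2 libraries after adding 2.18 normalized reads, and the interval beside it is a 95% Clopper-Pearson interval on the read counts, which covers counting error only. All 3 ratios are built from the same 3 libraries. WT-ERG left the members close to the empty vector: the 10 ratios ran from -0.16 at Fosl2 to 0.07 at Junb, with a median of -0.10 against -0.11 for all 15478 genes. None was 1.5-fold lower or higher, where 4.33% and 5.25% of all genes were. In P199L-ERG 9 of the 10 were below the empty vector, with a median of -0.58 (all genes -0.41), and 5 were at least 1.5-fold lower: Fosb, Fosl2, Junb, Jund and Ier2. This is 5 of 10 where 39.5% of all genes were lower by that much, and 0 were higher (all genes 10.3%). Against WT-ERG 4 were lower (Fosb, Fosl2, Junb and Jund; all genes 35.3%) and 0 higher (11.3%). These counts rest on the deposited factors. Scaling each library to its reads inside the regions raised every ratio of P199L-ERG by 0.43 over the empty vector and 0.32 over WT-ERG. The members' medians then became -0.15 and -0.19, 0 of 10 was 1.5-fold lower in either pair (all genes 16.9% and 15.4%), and 3 genes (Fos, Jun and Dusp1) were above both other lines.

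**Figure D1:**
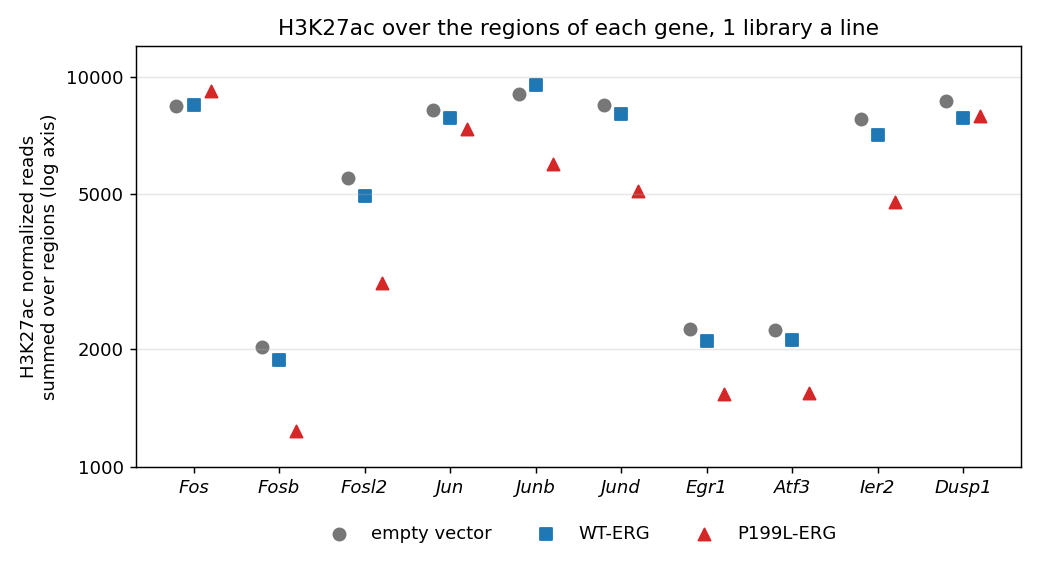
H3K27ac normalized reads summed over the regions of each gene (vertical log axis) in the 3 lines (empty vector, WT-ERG, P199L-ERG), 1 library a point. The WT-ERG squares lie near the grey circles at every gene, while the P199L-ERG triangles lie below both at Fosb, Fosl2, Junb, Jund, Egr1, Atf3 and Ier2, less far below at Jun, and above both at Fos; scaled to total reads, Jun and Dusp1 also come to lie above.

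Among the Fos family, which supply the DNA-binding partners of Jun, Fosl2 had the largest decrease. Its regions held 5506 normalized reads in the empty vector, 4935 in WT-ERG and 2968 in P199L-ERG. The ratio of P199L-ERG over empty vector was -0.89 (-0.96 to -0.83). Fosb, which encodes a second inducible Fos protein, held 2033, 1880 and 1233, a ratio of -0.72 (-0.83 to -0.62). Fos itself, the classical immediate early gene, differed from both: 8400, 8475 and 9178, a ratio of 0.13 (0.08 to 0.17).

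Of the Jun family, Junb, the main Jun gene of myeloid cells that restrains progenitor growth in mice, held 9048, 9502 and 5988 normalized reads, the most of the 10 genes in 2 of the 3 lines. Its ratio of P199L-ERG over empty vector was -0.60 (-0.64 to -0.55). Jund, the least inducible Jun gene, held 8454, 8017 and 5091, a ratio of -0.73 (-0.78 to -0.68). Jun, the founding subunit of AP-1, was lower by less and only under the deposited factors, with 8237, 7857 and 7359 and a ratio of -0.16 (-0.21 to -0.12).

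Egr1, a zinc finger factor that promotes macrophage differentiation, held 2261, 2102 and 1533, a ratio of -0.56 (-0.66 to -0.46), just under the 1.5-fold limit of 0.585. Atf3, a stress-induced factor that dampens inflammatory transcription, held 2244, 2115 and 1546, a ratio of -0.54 (-0.63 to -0.44). As deposited, both were therefore lower than WT-ERG and the empty vector without being counted. After the GC adjustment Egr1 had 0.23 over the empty vector and 0.22 over WT-ERG, and Atf3 0.03 and 0.06. Ier2, whose small nuclear protein is induced by serum, held 7790, 7073 and 4766, a ratio of -0.71 (-0.76 to -0.66). Dusp1 held 8672, 7848 and 7937, with ratios of -0.14 (-0.19 to -0.10) in WT-ERG and -0.13 (-0.17 to -0.08) in P199L-ERG. The latter was below 0 under the deposited factors only, becoming 0.30 with total reads and 0.17 after the GC adjustment.

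The ratios in P199L-ERG differed between the starts of the genes and the regions farther away, as they did over all genes. Regions centred within 5 kb of the start, by the deposited distances, were lower in P199L-ERG at all 10 genes, relative to the empty vector, with a median ratio of -0.79 and 7 of 10 at least 1.5-fold lower. This is near the background, since 67.1% of the 11939 genes with such regions were lower by that much and their median was -0.84. Of those genes 89.2% were below 0. Regions farther away had a median of -0.19, with 5 of 10 genes below 0 and 2 lower by 1.5-fold (Fosb and Ier2), where 17.5% of 12936 genes were and the median was 0.083. As deposited, Egr1 was as low beyond 5 kb as near its start (-0.56 in both), and Fosb, Junb, Atf3 and Ier2 were lower in both places. After the GC adjustment Egr1 had 0.34 near its start and -0.39 beyond, and Junb 0.28 and 0.31. By the same adjustment Fosb had 0.14 and -0.09, Atf3 -0.09 and 0.05, and Ier2 -0.24 and 0.10. Scaled to total reads, all 10 starts were still below the empty vector (all genes 75.5%), with a median of -0.36 (all genes -0.42). By that scaling 4 of 10 starts (Fosl2, Jun, Jund and Atf3) were lower by 1.5-fold (all genes 37.0%). The distal median was 0.24 (all genes 0.51), with 4 of 10 genes below 0 (all genes 23.3%). At Fos the start held 1440, 1615 and 988 normalized reads and the distal regions 6961, 6860 and 8190, so that the promoter was lower and the sum higher. At Jun the start held 3237, 2982 and 1416 and the distal regions 5000, 4876 and 5944, so that the promoter was lower and the distal regions higher, with a sum slightly lower. Fosl2 held 4666, 3835 and 1735 at the start, a ratio of -1.43 (-1.51 to -1.35), and 840, 1101 and 1233 beyond, a ratio of 0.55. The single region over the Jund start (chr8:70694613-70701106, centred in its exon by RefSeq) held 6069, 4974 and 2614.

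**Figure D2:**
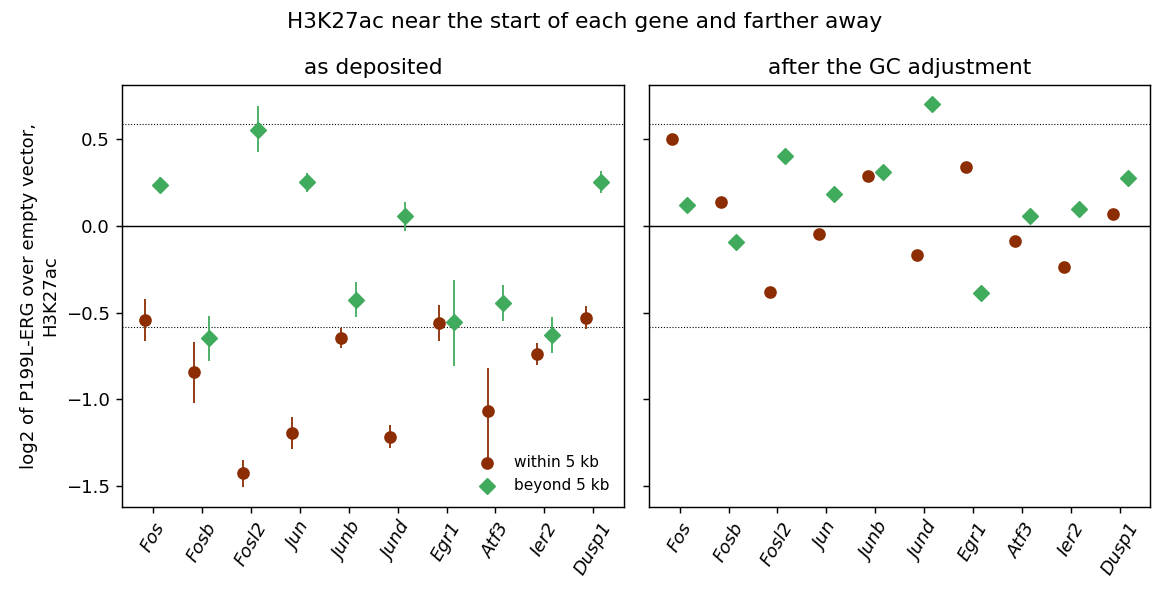
Log2 ratio of P199L-ERG over empty vector in H3K27ac (vertical axis) for each gene, from regions within 5 kb of the start (brown circles) and beyond (green diamonds), as deposited with 95% counting intervals (left) and after the GC adjustment (right); dotted lines mark 1.5-fold. As deposited all 10 circles lie below 0 with a median of -0.79, and after the adjustment their median is 0.01.

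Base composition moved with this split. The regions near the starts were 52.7% to 59.9% GC by gene (median 57.4%) and the distal ones 49.0% to 55.3% (median 53.3%). Over the 270 regions, the ratio of P199L-ERG over empty vector had a Spearman correlation of -0.60 with GC content, and that of WT-ERG to the empty vector 0.31; over all 114597 regions of the mark these were -0.64 and 0.23. The regions share libraries and many share a gene, so the correlations are descriptions. In the 25 member regions under 45% GC the median P199L-ERG ratio was 1.35 and 1 was below 0, whereas in the 20 of 60% or more it was -0.89 and 18 were below 0. The printed stretches illustrate this and are no support for it. The Fosb one was chosen as the region nearest the start. The Jun one was chosen as its most changed region in P199L-ERG against the empty vector, so its ratio is extreme by selection. The Fosb promoter region held 426, 444 and 150 normalized reads, a ratio of -1.49 (-1.78 to -1.23). The distal Jun region held 20.7, 35.0 and 142, a ratio of 2.65 (2.07 to 3.57).

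**Figure D3:**
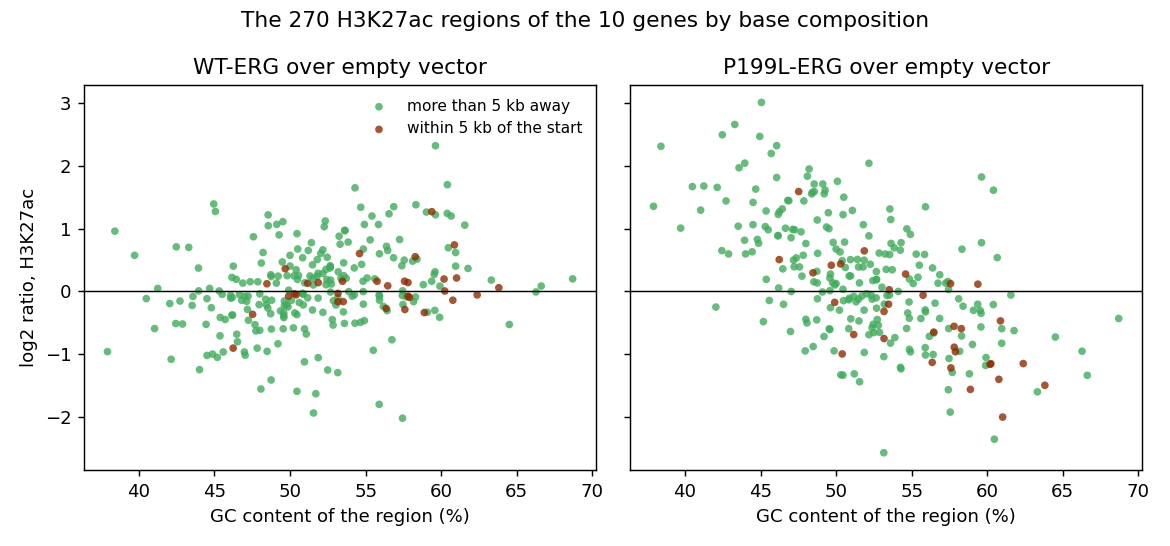
Log2 ratio of H3K27ac to the empty vector (vertical axis) against the GC content of each of the 270 member regions (horizontal axis, percent), for WT-ERG (left) and P199L-ERG (right), with regions within 5 kb of a start in brown and the others in green. In P199L-ERG the points slope down from a median of 1.35 below 45% GC to -0.89 at 60% or more, and in WT-ERG they slope up weakly.

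A GC adjustment subtracted from each library its median deviation in each of 20 classes of composition by 10 classes of signal, over all regions of the mark. With it, 0 of the 10 genes was 1.5-fold lower or higher in any pair. The median for P199L-ERG over the empty vector became 0.13 over whole genes, 0.01 near the starts and 0.15 beyond. Fosl2 kept the lowest value of P199L-ERG against the empty vector, at -0.19, or -0.38 near its start. Junb moved from -0.60 to 0.29, and Fos near its start from -0.54 to 0.50. The adjustment centres every GC group on 0, so it removes any change shared by regions of like composition, whatever its origin. Whether base composition of the library or a change of the mark lowered these promoters was not tested.

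H3K9ac, the other acetylation mark, gave smaller differences. No gene reached 1.5-fold in either direction in WT-ERG or P199L-ERG against the empty vector or between them, where 6.30%, 7.06% and 2.41% of 14930 genes did. The median ratios were -0.19, -0.17 and -0.01, against -0.15, -0.18 and -0.04 for all genes. Regions within 5 kb of the start were lower in both ERG lines at all 10 genes, with medians of -0.24 and -0.29. The share of all genes with lower starts was not computed for this mark, so this count cannot be called particular to the members. Those medians became -0.04 and 0.03 after the GC adjustment. Scaled to total reads, 8 and 7 of the 10 starts stayed below the empty vector, with medians of -0.079 and -0.087. The members' medians over all their regions were then -0.025 and 0.030, against 0.0115 and 0.0182 for all genes.

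Fosl2 stood lowest here too, and in both ERG lines. Its H3K9ac regions held 3472, 2723 and 2380 normalized reads, giving ratios of -0.35 (-0.42 to -0.28) for WT-ERG and -0.54 (-0.62 to -0.47) for P199L-ERG. The difference lay in 1 region over the start (chr5:32132993-32138584, centred upstream of the gene in RefSeq), with 2839, 1995 and 1703, ratios of -0.51 and -0.74. The 21 regions more than 5 kb away summed to 542, 638 and 588. After the GC adjustment the start regions kept ratios of -0.22 and -0.36, the lowest of the 10 genes in both lines. Scaled to total reads they had -0.32 and -0.51. The promoter printed above with its ETS core lies inside this region.

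**Figure D4:**
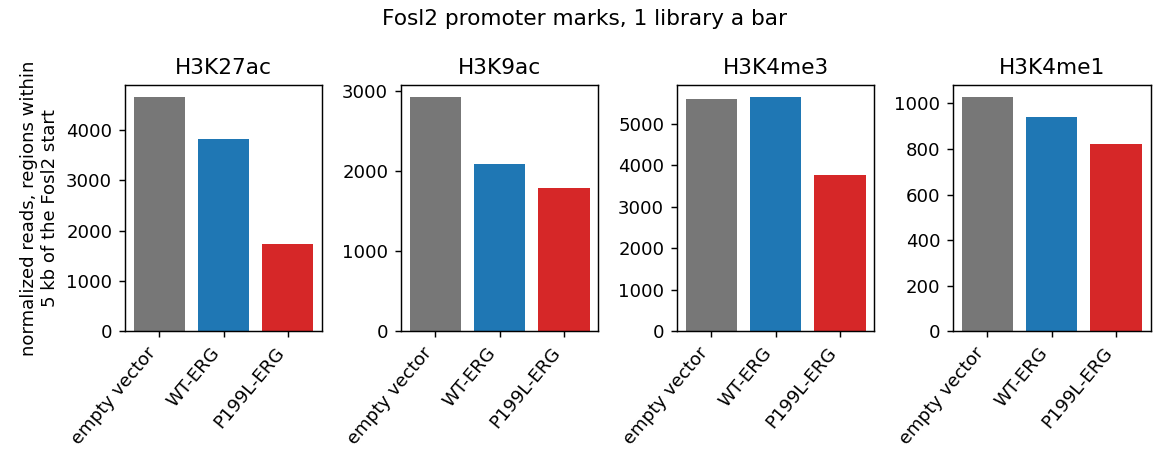
Normalized reads within 5 kb of the Fosl2 start (vertical axes from 0, 1 panel a mark, scales differ) in the 3 lines (empty vector, WT-ERG, P199L-ERG), 1 library a bar. H3K27ac and H3K9ac step down from the empty vector to WT-ERG to P199L-ERG, while H3K4me3 is lower in P199L-ERG alone.

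H3K4me3, the mark of active starts, hardly differed between WT-ERG and the empty vector: the 10 ratios ran from -0.06 to 0.12, 0 reached 1.5-fold (all genes 4.51%), and the median was within 0.01 of 0. In P199L-ERG all 10 were below both other lines, with median ratios of -0.35 to the empty vector (all genes -0.22) and -0.37 to WT-ERG (all genes -0.19). The share of all genes below the other lines was not computed for this mark. None reached 1.5-fold against the empty vector (all genes 10.8%). Against WT-ERG 1 did (all genes 13.0%): Jund, with 5204, 5674 and 3528 normalized reads and a ratio of -0.68 (-0.75 to -0.63). Junb held 6085, 5909 and 4824, and Fos 8077, 7736 and 6902. After the GC adjustment the medians were -0.0027 and -0.033, and Jund had -0.20. Scaled to total reads, 8 of the 10 were below each of the other lines (all but Fos and Fosb). The medians of the 10 were then -0.091 and -0.12, against 0.0372 and 0.0535 for all genes, and 0 reached 1.5-fold.

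H3K4me1, which marks enhancers and the flanks of promoters, gave no 1.5-fold difference at any of the 10 genes, where 14.8%, 5.71% and 11.4% of 17553 genes reached it in WT-ERG and P199L-ERG against the empty vector and between them. The medians were -0.10, -0.13 and -0.04, against 0.022, -0.065 and -0.076 for all genes. The largest difference was at Dusp1, the MAP kinase phosphatase gene. Its 16 regions held 9244 normalized reads in the empty vector, 6225 in WT-ERG and 7756 in P199L-ERG. The ratios to the empty vector were -0.57 (-0.62 to -0.52), under the 1.5-fold limit by a small margin, and -0.25 (-0.30 to -0.21).

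The decrease was spread over the regions assigned to Dusp1. Of these 16, 0 were assigned to Dusp1 alone and 1 was centred within 5 kb of its start. The alternative with single-gene regions therefore could not be applied to this sum. WT-ERG was below the empty vector at 14 of the 16 regions and 1.5-fold lower at 9, with 1 higher by that much. Of all 114913 H3K4me1 regions, 47.6% were below the empty vector, 17.2% were 1.5-fold lower and 25.3% higher. Of the 9, 4 held 100 or more normalized reads in a line. The region over the gene (chr17:26496301-26517224, 20.9 kb, centred in a Dusp1 intron) held 3883, 2575 and 3436 normalized reads and accounted for 43.3% of the net decrease in WT-ERG. A second, 25.5 kb upstream and intergenic, held 2414, 1661 and 2008. The region whose centre is printed above, in an intron of Gm34455, was chosen as the most changed between P199L-ERG and WT-ERG. It held 213, 88.8 and 183, a ratio of -1.22 for WT-ERG and -0.22 for P199L-ERG. 1 region of 3.69 kb, 15.4 kb upstream, went the other way, with 560, 601 and 405. The GC content of the 16 was 49.9% by length. After the GC adjustment the sum had ratios of -0.38 in WT-ERG and -0.12 in P199L-ERG, the former being the lowest of the 10 genes. Scaled to total reads the WT-ERG ratio was -0.55. In the other marks the Dusp1 ratio of WT-ERG to the empty vector was -0.14 in H3K27ac, -0.14 in H3K9ac and 0.11 in H3K4me3.

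**Figure D5:**
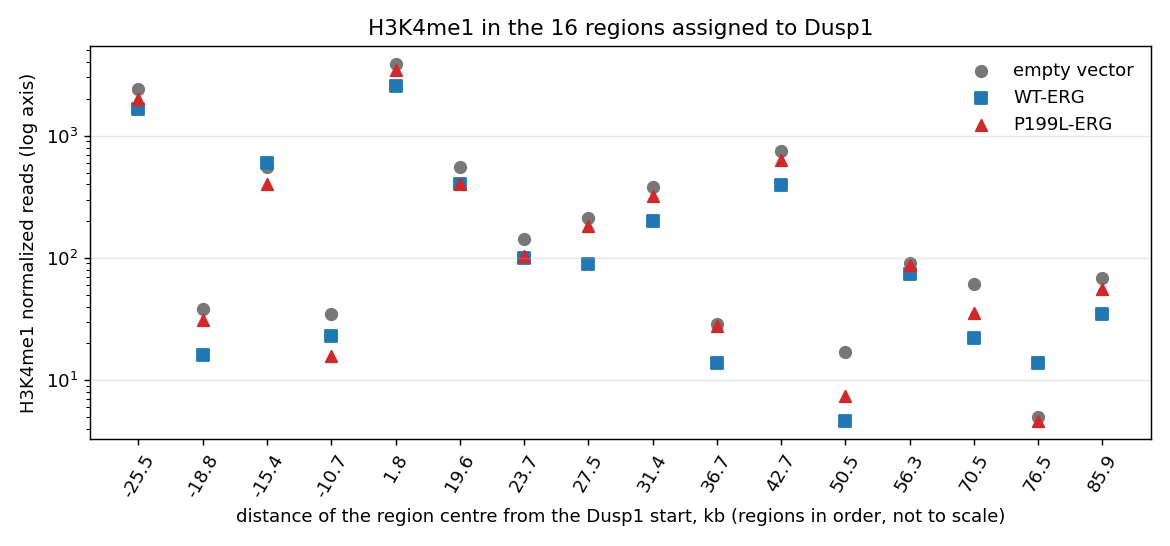
H3K4me1 normalized reads (vertical log axis) in the 16 regions assigned to Dusp1, in order of the distance of their centre from its start (horizontal axis, kb), in the 3 lines (empty vector, WT-ERG, P199L-ERG). The WT-ERG squares lie below the grey circles at 14 of the 16 regions, including the strongest, at 1.8 kb and -25.5 kb.

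As deposited, the highest H3K4me1 ratio in WT-ERG was at Jun. Its 58 regions held 9149, 10266 and 9999 normalized reads, ratios of 0.17 (0.12 to 0.21) and 0.13 (0.09 to 0.17). Its most changed region in WT-ERG lay 414 kb from the Jun start, with 19.0, 136 and 49.4, ratios of 2.59 and 1.21. It is intergenic and also assigned to Fggy. After the GC adjustment the WT-ERG ratio of Jun was 0.21, below that of Jund at 0.25 (0.0023 as deposited).

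H3K27me3, the Polycomb mark of silent genes, was assigned to 7 of the 10 genes, with no region at Fos, Junb or Jund. Atf3 had the most, with 11 regions and 867, 823 and 860 normalized reads. The ratios were -0.07 (-0.20 to 0.05) in WT-ERG and -0.01 (-0.15 to 0.13) in P199L-ERG, so no difference of the sum was detectable at this depth. Its strongest region, over an intron (chr1:191177322-191182162), held 210, 167 and 166. Its ratios were -0.32 (-0.61 to -0.05) and -0.34 (-0.65 to -0.04), with counting intervals below 0 under the deposited factors. After the GC adjustment they were -0.22 and -0.33. Scaling to total reads was not run for this mark, and the share of all its regions that were lower was not computed. The region lies next to an H3K27ac region at the start with 348, 350 and 156. Dusp1 had 7 regions, with 367, 343 and 345. The other 5 genes had 1 to 3 regions and at most 122 normalized reads, and the sum of Jun was 5.28, 14.2 and 4.42.

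Genes around AP-1 were counted by the same rules, from lists of other subunits and partners (18 genes), other immediate early genes (40) and the kinases and serum response factors above them (21). In H3K27ac of P199L-ERG against the empty vector 5, 9 and 9 of the 17, 39 and 21 with regions were 1.5-fold lower and 1, 2 and 0 higher, where 39.5% and 10.3% of all genes were; after the GC adjustment 0 was lower in any list and 0, 2 and 0 were higher. Scaling to total reads was not run for these lists. In WT-ERG 0, 1 and 0 were lower and 1, 1 and 0 higher (all genes 4.33% and 5.25%), the first of the higher ones being Mafg, which held few reads. The gene lower in WT-ERG was Klf4, a monocyte differentiation factor, with 1098 and 722 normalized reads in the empty vector and WT-ERG, a ratio of -0.60 (-0.75 to -0.46), or -0.61 after the GC adjustment. Klf4 had -0.60 in H3K9ac as well, or -0.41 after the GC adjustment, which is under the 1.5-fold limit. Hes1, a Notch target, was higher in WT-ERG, with 1267 and 2248, a ratio of 0.83 (0.72 to 0.93). Nr4a2, an orphan nuclear receptor gene, had the largest H3K4me1 ratio of the lists above the median signal, with 602 in the empty vector and 1215 in WT-ERG, a ratio of 1.01 (0.87 to 1.16).

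Profiles were compared across the ratios of both ERG lines to the empty vector in the 4 active marks, 8 values in all. Candidates were other genes with regions of all 4 marks and at least the empty vector H3K27ac sum of the lowest member, Fosb. Among these 4362, the genes closest to the median profile of the 10 members were Tfap4, Stk4, Bri3bp, Patz1 and Prr3. Their Euclidean distances were 0.118 to 0.140 on the log2 scale. None belongs to the AP-1 or immediate early lists.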

How the data were processed

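Chromatin immunoprecipitation libraries of 5 histone marks in 3 lines (15 libraries) were compared; the IgG pool was not used here. The authors trimmed reads with cutadapt, kept unique bowtie alignments to mm10, used MACS2 for peaks and GREAT for the genes of each region. The deposited tables give, per merged region, the count of reads in each library and a signal of normalized reads, which is the count times 1 factor per library (0.833 to 1.15) that the authors chose; peak calls are given as 0 or 1. Normalized reads were summed per gene. Log2 ratios used a pseudocount of 10% of the median signal of the mark (2.18 to 4.29), and 1.5-fold either way was counted. Intervals are Clopper-Pearson on the read counts of 1 library per mark and line, so they cover counting error only. Reads carry no molecular identifiers. GC content came from GRCm38.p6. The ratio and GC steps were tested on simulated data. The 10 genes and the wider lists were chosen with earlier results of these data known. Named genes beyond the 10 were the largest changes of the wider lists above the median signal and the 5 closest profiles; named regions were the nearest, strongest and most changed, with others, such as the second Dusp1 regions, chosen after their values were seen. Alternatives were scaling to total reads, GC centring, pseudocount, a filter on low regions, peak calls, single-gene regions and distance. pandas 2.3.3, scipy 1.17.1 and pysam 0.24.0 were used.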

Additional observations from a re-analysis of the deposited data

How the results depend on the processing

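With 1 library per mark and line no replicate could be left out, and counting intervals do not cover variation between cultures. No paired analysis was possible because the labels give no replicate numbers and each line has 1 library per mark. Over 8 alternatives, the 12 medians of the 10 genes left a 95% interval of the main median 19 times and stayed inside it 77 times. That interval comes from the ranked values of the genes, which are not replicates, so it is a description only. The GC adjustment brought the H3K27ac median of P199L-ERG to 0.13 over empty vector and 0.091 over WT-ERG, those of H3K4me3 to -0.0027 and -0.033, and that of H3K4me1 in WT-ERG to 0.058. Regions within 5 kb gave -0.79 and -0.82 for the H3K27ac pairs, -0.48 for H3K4me3 and -0.23 for H3K4me1 of P199L-ERG against WT-ERG. Regions beyond 5 kb gave H3K4me3 medians of -0.20 and -0.079 for P199L-ERG over empty vector and over WT-ERG, and -0.057 for WT-ERG over empty vector. Regions given to 1 gene only gave -0.83 and -0.79 for the H3K27ac pairs. Scaling to total reads gave 0.016 for H3K27ac and -0.025 for H3K9ac of WT-ERG, 0.030 for H3K9ac of P199L-ERG, and -0.091 and -0.12 for H3K4me3 of P199L-ERG over empty vector and over WT-ERG. That scaling moved the H3K27ac median of all genes for P199L-ERG over empty vector from -0.41 to 0.018, and the GC adjustment moved it to -0.03, so ratios are best read against those medians. Single-gene ratios changed sign in 137 of 942 cases, 42 of them under the GC adjustment and 24 under total reads. Those past 1.5-fold that changed sign were all in H3K27ac of P199L-ERG: beyond 5 kb, Fosl2 (0.55) and Jund (0.054) against the empty vector and Fosl2 (0.16) against WT-ERG; after the GC adjustment, Junb (0.29) and Jund (0.16) against the empty vector and Fosb (0.11), Junb (0.11) and Jund (0.10) against WT-ERG. The cause was not tested.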
